A study of Mus musculus with 24 samples.

Results

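Gene expression in the hippocampus at the ninth hour of the resting period was compared between corticosterone-treated and control mice on 8 of the 24 microarrays of the study, those whose labels give the third time point. Each of these arrays held RNA of 1 control mouse in the Cy3 channel and RNA of 1 corticosterone-treated mouse in the Cy5 channel, so that the comparison rests on 16 mice, 8 per group. By the methods of the study, control mice were brothers of treated mice and every group drew on several litters. The labels give no litter, so the fit holds no term for it, and animals that share a litter may vary less than unrelated ones. All were Swiss-Webster males, 12 weeks old, and RNA of individual hippocampal samples was hybridized without pooling. Corticosterone was given at 100 µg/ml in the drinking water with 0.45% hydroxypropyl-β-cyclodextrin, which the water of control mice also contained, from the end of the light phase and through the 12 h of the dark phase, when mice are active. The other arrays hold animals killed at the first or the fifth hour after the lights came on, 8 arrays each, and serve here to show which differences of the ninth hour were present earlier. Blood corticosterone is not in the files analysed here. By the study, it was back at baseline in treated mice at the fifth hour. Control mice showed a slight rise at the ninth hour, when the groups differed, so the controls of that hour are no equal-hormone reference. A steroid in drinking water is taken in by each animal as much as it drinks. The question is which differences remain, and which appear, when the animals have rested for hours after the end of the drinking period.

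Corticosterone is the main glucocorticoid of the mouse. It binds the glucocorticoid receptor *Nr3c1* and the mineralocorticoid receptor *Nr3c2*, which enter the nucleus and raise or lower transcription of their target genes, and the hippocampus is rich in both receptors. Several targets are inhibitors of the same pathway, such as *Fkbp5*, a cochaperone that lowers the affinity of the receptor for the hormone, while others act in metabolism, in the binding of metals, or in glial cells.

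The median spot of a ninth-hour array had an intensity of at least 92.0 in the Cy3 channel and between 139 and 166 in the Cy5 channel, and 61.3 to 66.4% and 67.3 to 72.1% of spots were well above background. None of the spots was saturated. Corticosterone was Cy5 on every array of the study and the dyes were never exchanged, so at a single hour a dye effect that is constant for a probe cannot be told apart from the treatment. Such an effect cancels in the difference between hours, that is, in the corticosterone effect at the ninth hour minus that at the first or the fifth hour. Slide 1 held 4 of the ninth-hour arrays and slides 2 and 3 held 2 each, against 2, 3 and 3 arrays at the first and at the fifth hour. Log ratios correlated across probes between ninth-hour arrays with a median r of 0.26 (range 0.012 to 0.44, 28 pairs), 0.28 within slides and 0.22 between slides. Each of 18 hippocampal subfield markers reached a signal intensity of 50, as did 15497 of 23853 named genes, so that this alone does not set the tissue apart from others. Among these markers, *Prox1* of dentate granule cells had a mean of 2450 (SD 321) in control and 2380 (SD 379) in treated animals. Their summed intensity ranged from 99165 to 106065 in control and from 95600 to 107206 in corticosterone-treated animals. In bulk tissue, fewer cells of a type and less RNA per cell cannot be told apart.

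At the ninth hour 7867 of 56605 probes (13.9%) differed between corticosterone-treated and control animals at an adjusted p under 0.05, 3945 of them higher and 3922 lower after corticosterone. Emphasis was placed on the 32035 probes with a mean signal intensity of 50 or more (50.0004 for the dimmest probe inside and 49.9911 for the brightest outside), of which 4424 (13.8%) were called, 2234 higher and 2190 lower. They cover 3269 named genes, and 844 of them have no gene name here. Most of the differences were small, with a median absolute log2 fold change of 0.22 among the called probes. Only 109 probes, 68 higher and 41 lower, reached an absolute log2 fold change of 0.5, and 10 reached 1. The direction was the same on all 8 arrays for 2795 of the called probes. All 8 corticosterone-treated animals lay above or below all 8 control animals for 751 probes (2.34%) and among these 356 were called higher and 342 lower.

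Most of the probes called at the ninth hour had been called with the same sign at the first. Of the 4424 called probes, 2700 had been called with the same sign at the first hour and 2362 at the first and the fifth hour, while 1659 had not been called at the first hour and 65 had been called there with the opposite sign. Counted over genes by their brightest probe, 1434 of 15497 genes (9.25%) were higher and 1120 (7.23%) were lower at the ninth hour, against 1907 (12.3%) and 1889 (12.2%) at the first. Of the 1907 genes that were higher at the first hour, 901 were still higher, 37 had become lower and 969 were not called at the ninth hour. Of the 1889 genes that were lower at the first hour, 746 were still lower, 12 had become higher and 1131 were not called. A dye effect that is constant for a probe would give the same sign at each hour. In these counts it cannot be told apart from a corticosterone effect that lasts. The 3 comparisons have their own control animals, but they share 1 fit and the same dye orientation, and being called at 1 hour and not at another does not show a difference between the hours. That difference was tested itself. It was called for 469 of all probes between the ninth and the first hour (0.829%; 4057 at an unadjusted p under 0.05) and for 46 between the ninth and the fifth hour (0.0813%; 2945 at an unadjusted p under 0.05). Among probes of intensity 50 or more, 442 differed between the ninth and the first hour, 138 towards higher and 304 towards lower values, and 287 of these were no longer called at the ninth hour.

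The largest increases that remained included enzymes of conjugation and of energy metabolism. *Sult1a1*, a cytosolic sulfotransferase that conjugates phenols, had the largest fold change among the 15 increases named by size, apart from *Lao1*, whose increase has only a bound. Its signal intensity ranged from 479 to 753 (median 519) in control animals and from 1352 to 2190 (median 1754) in corticosterone-treated animals. The groups lay far apart, and the log2 fold change was 1.68 (SE 0.11, adjusted p = 2.21e-16), with 1.76, 1.84 and 1.35 within slides 1, 2 and 3. *Ugt1a6b*, a glucuronosyltransferase of the same detoxifying system, rose from 238 to 371 (median 293) in controls to 476 to 773 (median 657) after corticosterone, again without overlap (log2 fold change 1.10, SE 0.17, adjusted p = 8.32e-06). Genes of this family share sequence, and which of them its probe measures was not tested. *Lao1*, an L-amino acid oxidase, was well above background in none of 8 control and in 6 of 8 corticosterone-treated animals, so its increase has only a bound. It was at least 2.06-fold higher, on measured values of 12.3 to 42.0 (median 24.2) in control and up to 125 (median 59.3) in treated animals, with overlap. This bound holds for values without an offset. With an offset of 50 in the fold change, its fitted log2 fold change was 0.51. Like every fitted value of *Lao1*, this is no exact fold, because its control level was not well above background. Its adjusted p of 0.0245 rose to values between 0.0516 and 0.071 without any one of the first, sixth, seventh and eighth ninth-hour arrays, to 0.151 and 0.226 without slides 1 and 3, and to 0.0726 with the processed signals of the scanner software (log2 fold change 2.01). By the study, PCR found both *Sult1a1* and *Lao1* increased at every tested time point.

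**Figure D1:**
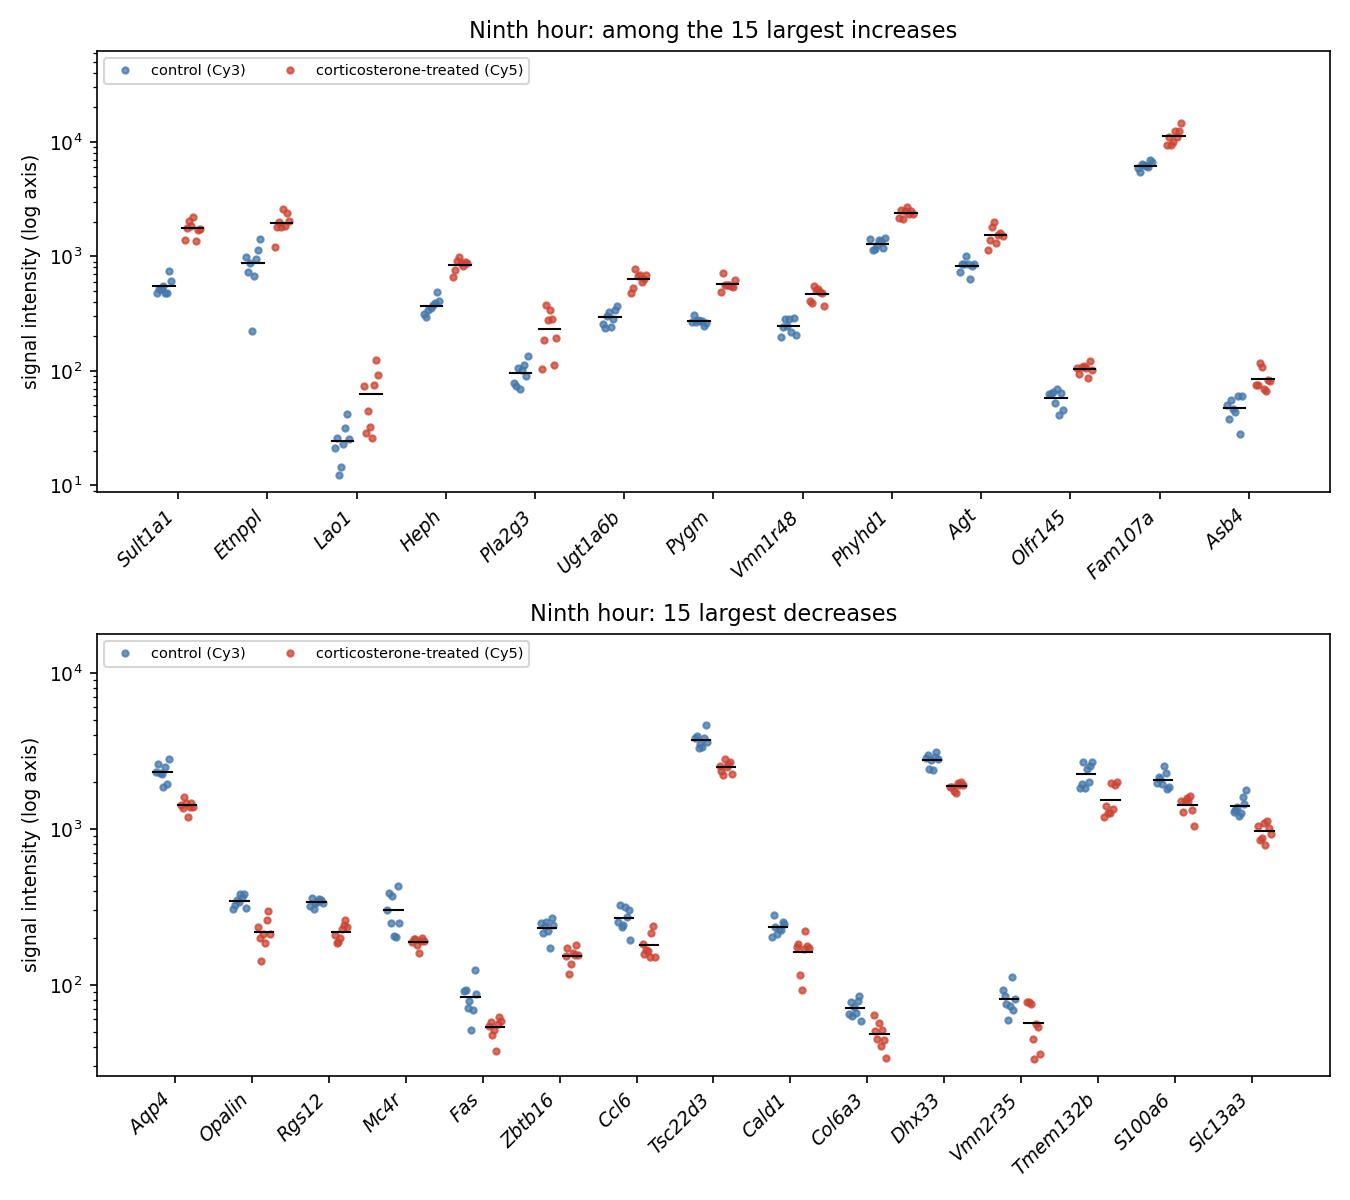
Signal intensity at the ninth hour in each of the 8 control and 8 corticosterone-treated animals for named genes, on a log axis, with genes among the 15 largest increases in the upper panel, the 15 largest decreases in the lower panel, and a black line at the mean intensity of each group. For *Sult1a1* the 8 treated animals lie at 1352 or more and the 8 controls at 753 or less, whereas the groups overlap for *Etnppl*.

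Increases were also found for single genes of metal, lipid and matrix biology. Hephaestin (*Heph*), a ferroxidase that acts in the export of iron from cells, ranged from 295 to 491 (median 366) in control and from 666 to 985 (median 872) in corticosterone-treated animals. Its log2 fold change of 1.20 (SE 0.10, adjusted p = 1.29e-12) was close to the 1.17 of the first and the 1.33 of the fifth hour, and a further probe of intensity 488 gave 1.15. By the study, the lasting effect on *Heph* held for only some transcript variants, the canonical one included. *Apod*, a lipid-binding apolipoprotein of glia, ranged from 6920 to 10155 (median 8147) and from 11941 to 17782 (median 13954), a log2 difference of 0.81 (SE 0.11, adjusted p = 3.78e-07). *Timp4*, an inhibitor of matrix metalloproteinases, had the least spread of these genes. It ranged from 1624 to 1750 (median 1701) in control and from 2560 to 3230 (median 2918) in treated animals, a log2 difference of 0.78 (SE 0.05, adjusted p = 1.66e-15).

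In energy metabolism, *Pygm*, the muscle form of glycogen phosphorylase that releases glucose units from glycogen, ranged from 248 to 308 (median 269) in control and from 491 to 712 (median 559) in corticosterone-treated animals. The groups did not overlap, and the log2 fold change was 1.08 (SE 0.10, adjusted p = 2.1e-11) at the ninth hour beside 0.90 at the first and 1.11 at the fifth. A brighter probe of *Pygm* gave 0.82. *Phyhd1*, a dioxygenase related to the enzyme of phytanic acid breakdown, rose from 1128 to 1436 (median 1317) to 2119 to 2719 (median 2416). Its log2 fold changes within the slides were 0.90, 0.88 and 0.89.

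*Agt* encodes angiotensinogen, which astrocytes supply in the brain, and it ranged from 633 to 1007 (median 855) in control and from 1140 to 1996 (median 1520) in corticosterone-treated animals (log2 fold change 0.88, SE 0.12, adjusted p = 3.88e-07). *Fam107a*, an actin-binding protein known as a stress-responsive gene, ranged from 5414 to 6915 (median 6226) and from 9373 to 14640 (median 11015), a log2 difference of 0.85 (SE 0.08, adjusted p = 7.8e-12). The groups did not overlap for either gene. Another probe of *Fam107a* of nearly the same intensity (9860), however, gave a log2 fold change of 0.14 that did not pass the test (adjusted p = 0.252). *Etnppl*, a lyase of phosphoethanolamine, was the most variable of these genes, with 221 to 1431 (median 916) in control and 1202 to 2620 (median 1934) in treated animals (log2 fold change 1.29, SE 0.22, adjusted p = 3.89e-05). Of its dimmer probes, both with an intensity under 50, 1 gave 0.13 and the other was lower after corticosterone (-0.70, adjusted p = 0.00311). By the study, PCR of *Etnppl* also showed group differences at each tested time point. *Pla2g3*, a secreted phospholipase, ranged from 69.5 to 135 (median 96.4) and from 104 to 373 (median 236), and its log2 fold change of 1.19 was 1.40, 1.55 and 0.41 within the slides. By the study, the lasting effects on *Pla2g3*, *Pygm* and *Etnppl* also held for only some transcript variants, the canonical ones included.

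Further increases of this rank were *Vmn1r48*, *Olfr145* and *Asb4*. The first 2 are members of large receptor families of the nose with many similar genes, so that the transcript behind these probes is uncertain. Their log2 fold changes were 0.92 and 0.87. *Asb4*, a subunit of ubiquitin ligases, ranged from 28.2 to 60.6 (median 48.2) in control and from 67.2 to 117 (median 78.5) in treated animals, and was the only 1 of the 15 that had not been called at the first hour (log2 fold change 0.27, adjusted p = 0.126). Its ninth-hour value of 0.84 (SE 0.13, adjusted p = 9.24e-05) was not called without the arrays of slide 1 (0.71, adjusted p = 0.0855), and the difference of 0.56 between the hours did not pass the test (adjusted p = 0.468). Its control animals lay around the intensity limit of 50, so that its probe, like that of *Lao1*, passed this limit largely through the group where it is high. Apart from *Lao1*, the fit called no difference from the first hour for any of the 15. The difference of *Lao1*, whose control level was not well above background, lay near the threshold (adjusted p = 0.0429) and was lost with an offset of 0 for p-values (adjusted p = 0.173), without slide 1 or 3 and without any one of the first 6 arrays, so it is not counted here. The study had named these genes from the same samples, so their values here are no independent evidence.

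**Figure D2:**
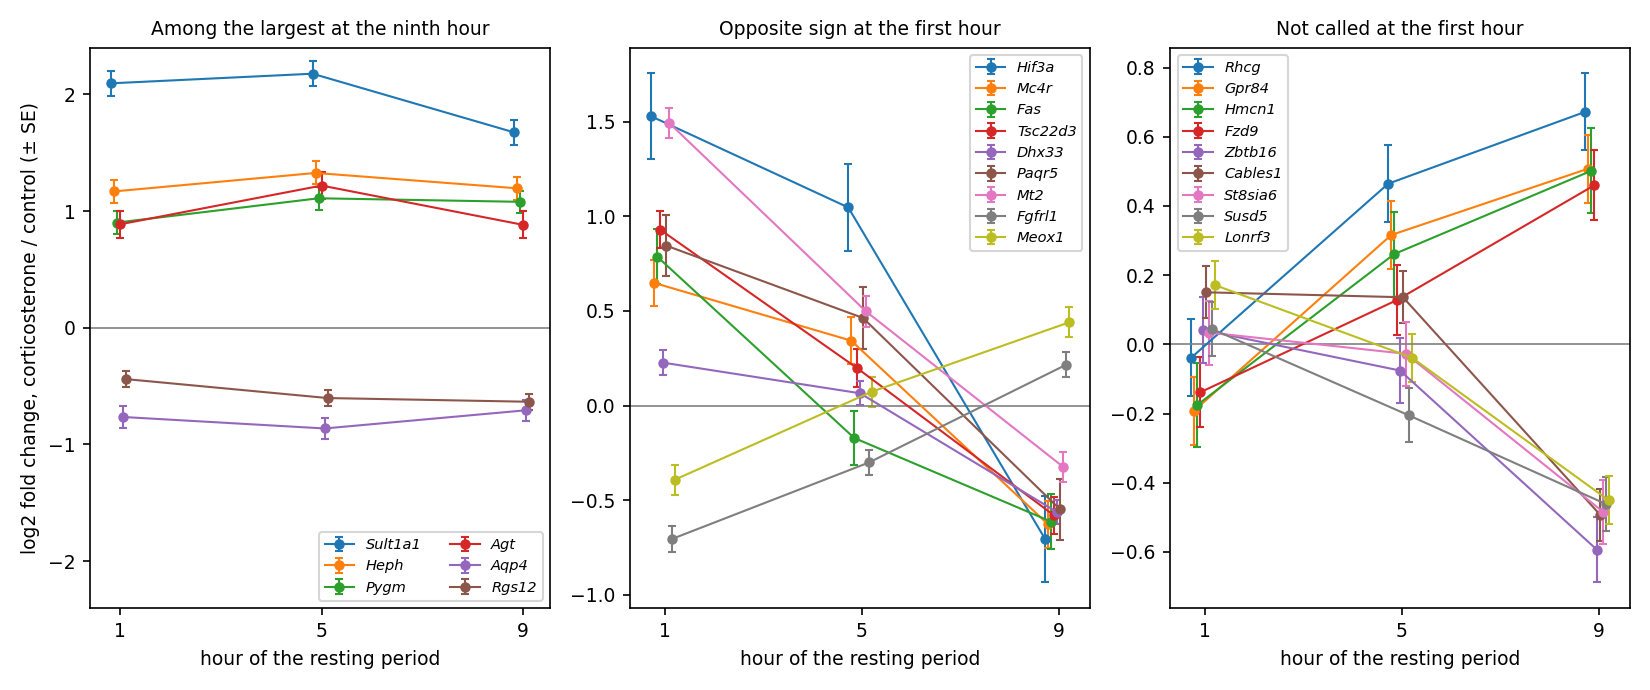
Log2 fold change of corticosterone-treated against control animals (points, with standard errors as bars) at the 3 hours studied, in panels for genes among the largest at the ninth hour, genes of opposite sign at the first hour and genes not called at the first hour. *Sult1a1*, *Heph* and *Aqp4* stay on their side of 0 at each hour, while *Tsc22d3* and *Mt2* start above 0 and end below it.

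The largest decreases were smaller than the largest increases. *Aqp4*, the water channel of astrocyte endfeet, headed the 15 decreases named by size. It ranged from 1860 to 2788 (median 2308) in control and from 1199 to 1604 (median 1406) in corticosterone-treated animals, and every treated animal lay below every control. The log2 fold change of -0.71 (SE 0.09, adjusted p = 1.96e-07) was -0.69, -0.75 and -0.70 within the slides and compares with -0.76 at the first and -0.86 at the fifth hour. *Opalin*, a membrane protein of oligodendrocytes, ranged from 306 to 383 (median 343) in controls and from 141 to 296 (median 212) after corticosterone. The groups did not overlap (log2 fold change -0.69, SE 0.15, adjusted p = 0.000418), but the call was lost without slide 1 (-0.61, adjusted p = 0.0777). The study's annotation places this probe in a transcript variant that retains an intron. By the study, a probe expected to bind the canonical variant did not detect the lasting change, and no other probe could be named *Opalin* here. *S100a6*, a calcium-binding protein, ranged from 1803 to 2511 (median 2021) and from 1037 to 1617 (median 1498), and *Slc13a3*, a carrier of dicarboxylic acids, from 1202 to 1778 (median 1345) and from 790 to 1120 (median 971). Both were lower in all treated than in all control animals, with log2 fold changes of -0.55 (adjusted p = 3.19e-06 and 2.54e-06).

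The matrix gene *Col6a3*, the actin-binding *Cald1* and the chemokine *Ccl6* were lower, with log2 fold changes of -0.56, -0.57 and -0.58 and groups that overlapped. The calls of *Cald1* (-0.37, adjusted p = 0.155) and *Ccl6* (-0.53, adjusted p = 0.101) were lost without slide 1, and the brightest probe of *Cald1* gave -0.13 (adjusted p = 0.0913). *Rgs12*, which shortens signalling by G proteins, was lower by a dim probe (307 to 362 in control and 186 to 261 in treated animals; log2 fold change -0.63, adjusted p = 2.14e-09), while its brightest probe gave 0.02. *Tmem132b*, a membrane protein, had a log2 fold change of -0.55 (adjusted p = 0.00018). *Vmn2r35*, a receptor of the vomeronasal organ, had a log2 fold change of -0.56 and lost its call without any one of 3 single arrays (adjusted p from 0.0741 to 0.087) or without slide 2 (-0.39, adjusted p = 0.213) or 3 (-0.49, adjusted p = 0.124). Of the 15 decreases 8 had groups apart, 10 had been called at the fifth hour and 11 at the first, where *Tsc22d3*, *Mc4r*, *Fas* and *Dhx33* had been higher after corticosterone.

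Genes known to respond to glucocorticoids had mostly lost their increase or had moved past it. Of the 30 genes of this list, 25 were higher and none was lower at the first hour, with a median log2 fold change of 0.61. At the ninth hour 8 were higher, 9 were lower and 13 were not called, and the median was -0.095 beside 0.0080 over all genes. The difference between the ninth and the first hour was called for 20 of the 30, each time towards lower values, against 344 of 15497 genes (2.22%) overall. Of the 25 genes that were higher at the first hour, 8 were still higher, 8 had become lower and 9 were not called. These counts describe the list and do not test it.

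Still higher were *Sult1a1*, *Pla2g3*, *Fam107a*, *Plin4*, *Mt1*, *Angptl4*, *Lcn2* and *Cebpb*. *Plin4*, a coat protein of lipid droplets, had been the most strongly raised gene of the list, with means of 161 in control and 1874 in treated animals at the first hour. At the ninth hour it ranged from 88.7 to 184 (median 119) in control and from 145 to 318 (median 205) in treated animals, with overlap. Its log2 fold change had gone from 3.47 through 2.53 to 0.75 (SE 0.19, adjusted p = 0.0167), a difference of -2.72 from the first and -1.78 from the fifth hour (adjusted p = 3.59e-10 and 0.000264). The ninth-hour call was lost without slide 1 (0.58, adjusted p = 0.313) and without any one of 3 single arrays (adjusted p from 0.0517 to 0.0571). *Angptl4*, an inhibitor of lipoprotein lipase, kept a log2 fold change of 0.41 (0.36 at the first hour), *Lcn2*, an iron-carrier-binding lipocalin, a value of 0.30 (0.40), and the transcription factor *Cebpb* a value of 0.19 (0.23). The differences of these 3 between the hours did not pass the test.

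**Figure D3:**
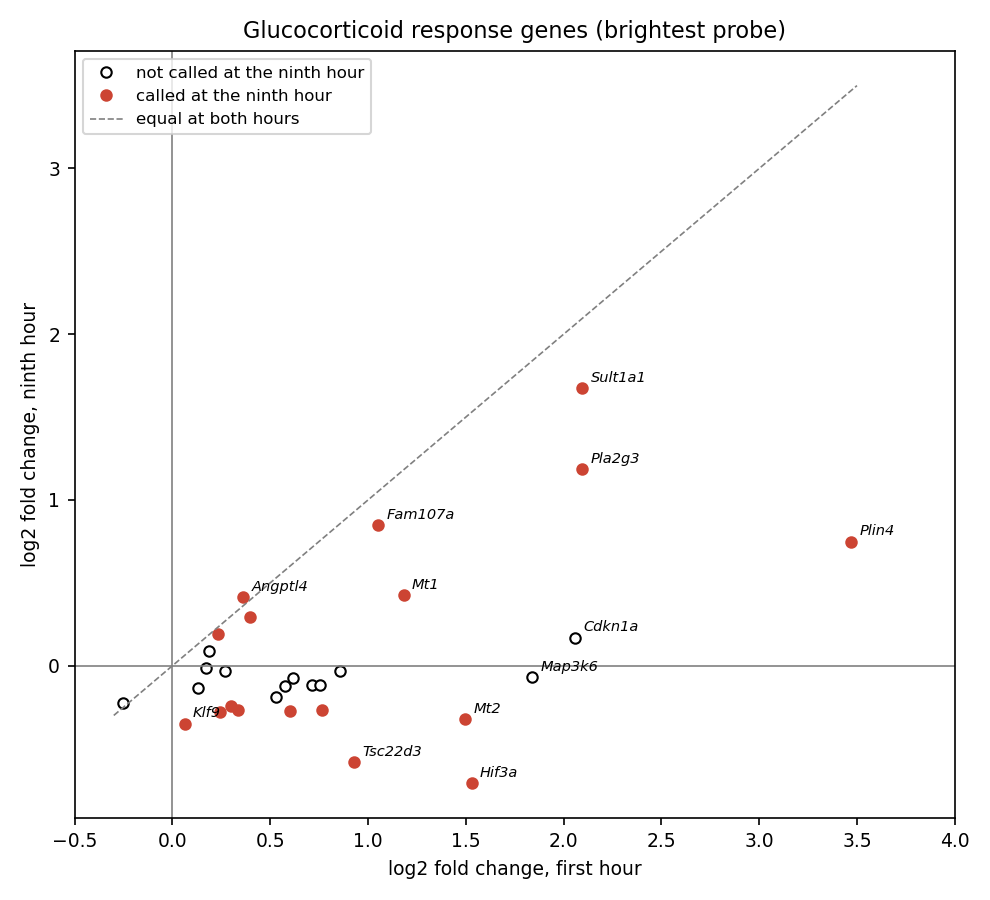
Log2 fold change of glucocorticoid response genes at the first hour (horizontal axis) and the ninth hour (vertical axis), each point 1 gene by its brightest probe, filled where called at the ninth hour, with a dashed line where both hours are equal. Of the 25 genes higher at the first hour, 8 remain above 0 with a call, 8 lie below 0 with a call and 9 are not called.

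Lower at the ninth hour were *Hif3a*, *Tsc22d3*, *Klf9*, *Mt2*, *Zbtb16*, *Fkbp5*, *Nfkbia*, *Errfi1* and *Cebpd*, and except for *Klf9* all of them had been higher at the first hour. *Tsc22d3*, known as the glucocorticoid-induced leucine zipper, went from means of 3660 in control and 7197 in treated animals at the first hour to 3735 and 2490 at the ninth. In single animals the ninth-hour values were 3286 to 4636 (median 3700) in control and 2217 to 2801 (median 2506) in treated mice, so that every treated animal lay below every control. The log2 fold changes were 0.93, 0.20 and -0.58 at the 3 hours, and the difference between the last and the first was -1.51 (adjusted p = 1.58e-10). A dimmer probe, of intensity 1334, gave the same difference in direction (-1.37, adjusted p = 3.99e-10), but its value at the ninth hour itself, -0.25, did not pass the test (adjusted p = 0.0643).

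*Fkbp5* ranged from 2417 to 3076 (median 2637) in control and from 1962 to 2392 (median 2176) in treated animals. Its log2 fold change was 0.60 at the first, 0.31 at the fifth and -0.27 at the ninth hour (SE 0.08, adjusted p = 0.0138), and the difference from the first hour was -0.88 (adjusted p = 6.3e-07). The ninth-hour value alone was not called without slide 1 (-0.26, adjusted p = 0.183) or without slide 3 (-0.25, adjusted p = 0.0987). *Nfkbia*, the inhibitor that holds NF-kappaB in the cytoplasm, went from 0.76 to -0.27 on the log2 scale (difference -1.03, adjusted p = 3.49e-09), with overlapping ninth-hour values of 1650 to 2271 (median 2085) and 1543 to 1853 (median 1648). The ninth-hour call was lost without slide 1 (-0.27, adjusted p = 0.192), without slide 3 (-0.19, adjusted p = 0.153) and without the eighth array (-0.23, adjusted p = 0.0514). *Hif3a*, a regulator of the hypoxia response, went from 1.53 to -0.71 (difference -2.24, adjusted p = 1e-05). Its ninth-hour value (adjusted p = 0.0385) was lost without any one of 5 single arrays (adjusted p from 0.0662 to 0.119) and without slide 1 (-0.69, adjusted p = 0.267) or 3 (-0.61, adjusted p = 0.259), as well as with the processed signals of the scanner software (-0.79, adjusted p = 0.0631) and on the log ratios of the authors (-0.52, adjusted p = 0.0533). The sign of a reversed gene at the ninth hour cannot be told apart from a constant dye effect, whereas the difference between the hours can.

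The metallothioneins *Mt1* and *Mt2*, small proteins that bind zinc and copper, parted at the ninth hour. *Mt1* was 57570 to 67138 (median 60826) in control and 77662 to 90888 (median 82481) in treated animals, without overlap (log2 fold change 0.43, SE 0.06, adjusted p = 3.39e-07). *Mt2* was 58784 to 75419 (median 69628) in control and 47380 to 64444 (median 53218) in treated animals, with overlap (log2 fold change -0.32, SE 0.08, adjusted p = 0.00295). Both had been raised at the first hour, by 1.18 and 1.50 on the log2 scale, and both moved down, by differences of -0.76 (adjusted p = 2.86e-09) and -1.82 (adjusted p = 1.11e-16). Control animals differed too, with *Mt2* means of 34676, 52708 and 68472 at the 3 hours beside 97096, 74473 and 54755 in treated animals. The ninth-hour value of *Mt2* did not pass the test with a different normalization between arrays (-0.14, adjusted p = 0.201), on the log ratios of the authors (-0.13, adjusted p = 0.242) or without slide 1 (-0.27, adjusted p = 0.107). A dim probe of *Mt1*, of intensity 108, was lower at the ninth hour (-0.32, adjusted p = 0.0465). *Mt3*, the brain form, was raised by 0.47 at the ninth hour and by 0.44 at the first.

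Of the genes of this list that were not called at the ninth hour, 13 in number, several had changed since the first hour. *Cdkn1a*, which halts the cell cycle, went from a log2 fold change of 2.06 to 0.17, *Map3k6*, a stress-activated kinase, from 1.84 to -0.07, *Pdk4*, which restrains the use of pyruvate, from 0.85 to -0.03, and *Sgk1*, a kinase induced by both receptors, from 0.71 to -0.12. The differences were -1.89, -1.91, -0.89 and -0.83, and each passed the test. *Per1*, a clock gene with a glucocorticoid response, went from 0.27 to -0.03 (difference -0.30, adjusted p = 0.00443). Among all probes of intensity 50 or more, 65 were called at both hours with opposite signs, 52 of them higher and then lower and 13 lower and then higher, and they included 52 named genes. Beyond the list, the former included the melanocortin receptor *Mc4r* (204 to 432 in control and 159 to 199 in treated animals, without overlap; 0.65 at the first and -0.63 at the ninth hour), the death receptor *Fas* (0.79 and -0.61), the progestin receptor *Paqr5* (0.85 and -0.55) and the RNA helicase *Dhx33* (0.23 and -0.56). Without slide 1, *Mc4r* (-0.49, adjusted p = 0.101), *Fas* (-0.57, adjusted p = 0.191) and *Paqr5* (-0.58, adjusted p = 0.113) were not called at the ninth hour, and *Paqr5* was lost also without slide 3 (-0.43, adjusted p = 0.174) and without any one of 4 single arrays (adjusted p from 0.0512 to 0.066). *Dhx33* kept its groups apart, with 2388 to 3096 (median 2831) and 1707 to 2005 (median 1877).

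Genes that went the other way were few. *Fgfrl1*, a receptor of fibroblast growth factors without a kinase, was lowered at the first hour (means 2077 in control and 1289 in treated animals) and raised at the ninth (2027 and 2352). Its ninth-hour values were 1881 to 2219 (median 2028) in control and 2230 to 2588 (median 2353) in treated animals, just without overlap. The difference of 0.92 between the hours (adjusted p = 9.05e-10) passed the test, and the ninth-hour log2 fold change of 0.22 (adjusted p = 0.0161) was lost without slide 1 (0.18, adjusted p = 0.283) or slide 3 (0.24, adjusted p = 0.0652). *Meox1*, a homeobox gene, went from -0.39 to 0.44 (difference 0.83, adjusted p = 1.55e-06), and *Cldn5*, the claudin of the blood-brain barrier, from -0.36 to 0.24 (difference 0.60, adjusted p = 2.59e-05). *Hes5*, a target of Notch signalling, had a log2 fold change of -0.66 at the first hour and of 0.21 at the ninth, where it did not pass the test (difference 0.87, adjusted p = 1.17e-05).

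A smaller group is termed late here, against the first hour only. The test found 62 probes of intensity 50 or more, in 56 named genes, that were called at the ninth hour, not called at the first, and different between these hours, 24 of them higher and 38 lower. Of the 10 largest of these changes, 3 had been called at the fifth hour, and the difference between the ninth and the fifth hour was called for 1. *Cables1*, a cell cycle protein, ranged from 2167 to 3124 (median 2761) in control and from 1745 to 2114 (median 1908) in corticosterone-treated animals, without overlap. Its log2 fold change was 0.15 at the first, 0.14 at the fifth and -0.49 at the ninth hour (SE 0.08, adjusted p = 4.94e-06), and it is among the few genes that also differed between the ninth and the fifth hour (-0.63, adjusted p = 0.00118), where without slide 1 no probe was called. Its difference from the first hour, -0.64 (adjusted p = 7e-05), was not called without slide 1 (-0.58, adjusted p = 0.101). *Klf9*, a transcription factor with a known glucocorticoid response, ranged from 6719 to 7883 (median 7295) in control and from 5397 to 6397 (median 5689) in treated animals. It was 0.06 at the first and -0.35 at the ninth hour (SE 0.04, adjusted p = 3.91e-08; difference -0.41, adjusted p = 4.44e-06). *Abcg2*, an efflux pump of brain vessels, went from 0.09 to -0.35 (difference -0.44, adjusted p = 0.00174). *Zbtb16*, a zinc finger gene, was lower at the ninth hour by a dim probe (0.04 and -0.59) and by its brightest probe (0.25 and -0.28), the latter not called without slide 1 (-0.29, adjusted p = 0.0677). The brightest probe had been called higher at the first hour (adjusted p = 0.00708), so *Zbtb16* is late by the dim probe only.

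Late increases were *Rhcg*, an ammonia transporter (91.9 to 141 in control and 141 to 219 in treated animals; -0.04 at the first and 0.67 at the ninth hour, adjusted p = 3.18e-05), *Gpr84*, a receptor of fatty acids on microglia (-0.19 and 0.51, adjusted p = 0.000143), *Fzd9*, a receptor of Wnt proteins (-0.14 and 0.46, adjusted p = 0.000803), and the extracellular matrix gene *Hmcn1* (-0.18 and 0.50, adjusted p = 0.00176), whose control mean of 46.9 was under the intensity limit. *Fzd9* was 656 to 852 (median 735) in control and 928 to 1111 (median 1046) in treated animals, without overlap. Late decreases, beside those given, were *St8sia6*, *Susd5*, *Lonrf3* and *Ptpdc1*, with log2 fold changes between -0.48 and -0.43. Without slide 1, *Rhcg* (0.53, adjusted p = 0.0615), *Fzd9* (0.38, adjusted p = 0.151), *Hmcn1* (0.46, adjusted p = 0.157) and *Ptpdc1* (-0.36, adjusted p = 0.079) were not called at the ninth hour. Among the 10 largest late changes, the difference from the first hour was called without each slide in turn for *Lonrf3* alone. This difference defines genes as late, and it was not refitted for *Klf9* and *Abcg2*, which are outside the 10. Without slide 1 it was not called for *Rhcg* (0.56, adjusted p = 0.549), *Hmcn1* (0.67, adjusted p = 0.461), *Fzd9* (0.61, adjusted p = 0.339), *Susd5* (-0.62, adjusted p = 0.0656), *St8sia6* (-0.64, adjusted p = 0.106) and *Ptpdc1* (-0.45, adjusted p = 0.395), nor for *Cables1*, as given. Without slide 2 it was not called for *Fzd9* (0.62, adjusted p = 0.208), the dim probe of *Zbtb16* (-0.57, adjusted p = 0.111), *St8sia6* (-0.54, adjusted p = 0.215) and *Ptpdc1* (-0.52, adjusted p = 0.171). Without slide 3 it was not called for *Rhcg* (0.72, adjusted p = 0.252), *Gpr84* (0.56, adjusted p = 0.185), *Hmcn1* (0.54, adjusted p = 0.311), the dim probe of *Zbtb16* (-0.67, adjusted p = 0.127), *Susd5* (-0.40, adjusted p = 0.27), *St8sia6* (-0.41, adjusted p = 0.423) and *Ptpdc1* (-0.38, adjusted p = 0.455). The difference between the hours of *St8sia6* (-0.52) and *Ptpdc1* (-0.46) was not called without any one of several single arrays (adjusted p from 0.0599 to 0.0848 and from 0.0596 to 0.105), nor was that of *Hmcn1* (0.68) without the fourth array (0.63, adjusted p = 0.0643) or with each array's 2 animals taken as a pair, that is, with the array as a replicate block (0.68, adjusted p = 0.0564), a fit in which *Ptpdc1* also lost its call (-0.46, adjusted p = 0.0671). With a slide term in that fit *Ptpdc1* had -0.41 (adjusted p = 0.136). On the log ratios of the authors, the differences were smaller and not called, at 0.33 for *Hmcn1* (adjusted p = 0.062) and -0.26 for *Ptpdc1* (adjusted p = 0.0601).

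Between the fifth and the ninth hour the effect of corticosterone changed for 43 probes of intensity 50 or more, 39 towards lower and 4 towards higher values, and each of the 43 had also changed in this direction since the first hour. These calls depend on the slides included. Over all probes the number of such differences went from 46 to 0 without slide 1 and to 6 without slide 3. It was 51 without slide 2 and 35 with slide 1 alone, of which 33 and 14 were among the 46. The decreases included *Plin4*, *Hif3a*, *Mc4r*, *Mt2*, *Tsc22d3*, *Fkbp5* and the fatty acid carrier of brain vessels *Mfsd2a* (0.92 at the fifth and 0.31 at the ninth hour, difference -0.61, adjusted p = 0.00118). The increases were *Fgfrl1*, *Cmtm5*, *Alpl* and the receptor *Nr3c1* itself. *Nr3c1* had means of 7474 in control and 5120 in treated animals at the fifth hour, and at the ninth it ranged from 5956 to 7227 (median 6576) in control and from 5286 to 6272 (median 5684) in treated animals. Its log2 fold change was -0.54, -0.55 and -0.18 at the 3 hours, and the ninth-hour value remained called (SE 0.06, adjusted p = 0.0177). A dimmer probe of *Nr3c1* gave -0.26 at the first and 0.02 at the ninth hour. Of 14 receptors and cochaperones, 3 were lower at the ninth hour (*Nr3c1*, *Fkbp5* and the cochaperone *Ptges3* at -0.17) and none was higher, and *Nr3c2* had a value of 0.03 (adjusted p = 0.765).

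For 3 genes on which these patterns turn, *Sult1a1* and *Fam107a* as lasting increases and *Tsc22d3* as a reversed gene, the 250 bases before an annotated transcription start are printed here, since they hold the letters TGTTCT, 1 arm of the palindrome to which the glucocorticoid receptor is known to bind, on either strand (on the other strand AGAACA). The sequences are from RefSeq on GRCm38.p6, 5′ to 3′ on the strand of the gene, which is the minus strand in each case, and capitals mark the matches. They lie at chr7:126676419-126676668 for *Sult1a1*, chr14:8309778-8310027 for *Fam107a* and chrX:140600523-140600772 for *Tsc22d3*.

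Sult1a1: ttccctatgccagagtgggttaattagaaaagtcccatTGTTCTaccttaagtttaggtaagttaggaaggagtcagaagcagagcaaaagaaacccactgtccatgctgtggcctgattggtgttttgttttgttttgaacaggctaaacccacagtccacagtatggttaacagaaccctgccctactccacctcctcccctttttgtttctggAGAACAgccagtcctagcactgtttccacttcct

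Fam107a: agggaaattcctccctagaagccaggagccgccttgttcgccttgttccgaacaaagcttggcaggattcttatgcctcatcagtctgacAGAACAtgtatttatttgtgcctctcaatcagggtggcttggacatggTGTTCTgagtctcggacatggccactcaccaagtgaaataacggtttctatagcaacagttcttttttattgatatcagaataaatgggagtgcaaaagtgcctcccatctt

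Tsc22d3: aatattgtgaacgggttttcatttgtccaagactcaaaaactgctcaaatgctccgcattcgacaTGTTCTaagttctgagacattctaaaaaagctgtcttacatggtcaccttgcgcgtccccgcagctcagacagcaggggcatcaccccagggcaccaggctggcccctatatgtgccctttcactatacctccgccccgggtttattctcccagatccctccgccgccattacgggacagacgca

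Matches begin 212 and 34 bases before the start of *Sult1a1*, 160 and 112 before that of *Fam107a* and 185 before that of *Tsc22d3*. A further annotated start of *Fam107a*, 2 bases away, holds the same matches, and its other start and the other 2 of *Tsc22d3* hold none. The same letters occur in 16.1% of 32851 such windows of the mouse and in 12.3% of the 65 windows of named genes, and the full palindrome (AGAACA, any 3 bases, then TGTTCT) occurs in 3 windows of all and in none of those of the named genes. A match of 6 letters is a description of the sequence and not a binding site.

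Gene groups were described by how many of their members with a probe of intensity 50 or more were called at the ninth hour, beside 9.25% higher and 7.23% lower among all genes. Enzymes of conjugation and oxidation had 5 of 18 members higher and none lower, *Sult1a1*, *Lao1*, *Ugt1a6b*, *Cyp4f15* (0.48) and *Cyp2d22* (0.19), and the median of the list was 0.068. Of these, *Lao1* reached an intensity of 50 through the corticosterone-treated animals, where it is high, and its place in the count is no support for the list. Of 24 genes of glycogen and glucose metabolism, 7 were higher, among them *Pygm*, hexokinase *Hk1* (0.28, adjusted p = 4.18e-06), aldolase *Aldoa* (0.27), the kinase *Pdk2* (0.26), the glucose carrier *Slc2a3* (0.20) and glycogen synthase *Gys1* (0.15), while *Ppp1r3g*, which directs phosphatase to glycogen, was lower (-0.26, after 0.47 at the first hour). *Hk1* ranged from 22715 to 27376 (median 24973) in control and from 26063 to 33608 (median 29950) in treated animals, with overlap. Of 20 genes of fatty acid oxidation and ketone bodies, 4 were higher and 1 lower, the former including *Pxmp2* of the peroxisome (0.63), *Cpt1a* (0.13), which admits fatty acids to mitochondria, and *Hadhb* (0.12).

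Of 24 genes of cholesterol and fatty acid synthesis, 18 were not called, none was higher and 6 were lower, all 6 of them enzymes of the sterol pathway. *Idi1* ranged from 2954 to 3444 (median 3155) in control and from 2067 to 2683 (median 2421) in corticosterone-treated animals, without overlap (log2 fold change -0.41, SE 0.06, adjusted p = 3.46e-07). *Msmo1* ranged from 10658 to 12937 (median 11647) and from 8319 to 9842 (median 9553), also without overlap (-0.31, SE 0.04, adjusted p = 2.66e-08). *Hmgcs1* (-0.25), *Sqle* (-0.21), *Fdft1* (-0.19) and *Fdps* (-0.16) followed, and the median of the list was -0.083 at the ninth and -0.081 at the first hour, when 7 were lower. Iron handling genes had 4 of 13 higher, *Heph*, the importer *Slc11a2* (0.17), *Aco1* (0.14) and ferritin *Fth1* (0.11), and transferrin *Trf* lower (-0.21). Of 22 genes of insulin-like growth factor and mTOR signalling 5 were higher and 1 lower, led by the transcription factor *Foxo6*. Its values were 5343 to 6136 (median 5952) in control and 7634 to 9437 (median 8504) in treated animals (0.52, SE 0.07, adjusted p = 9.14e-08).

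**Figure D4:**
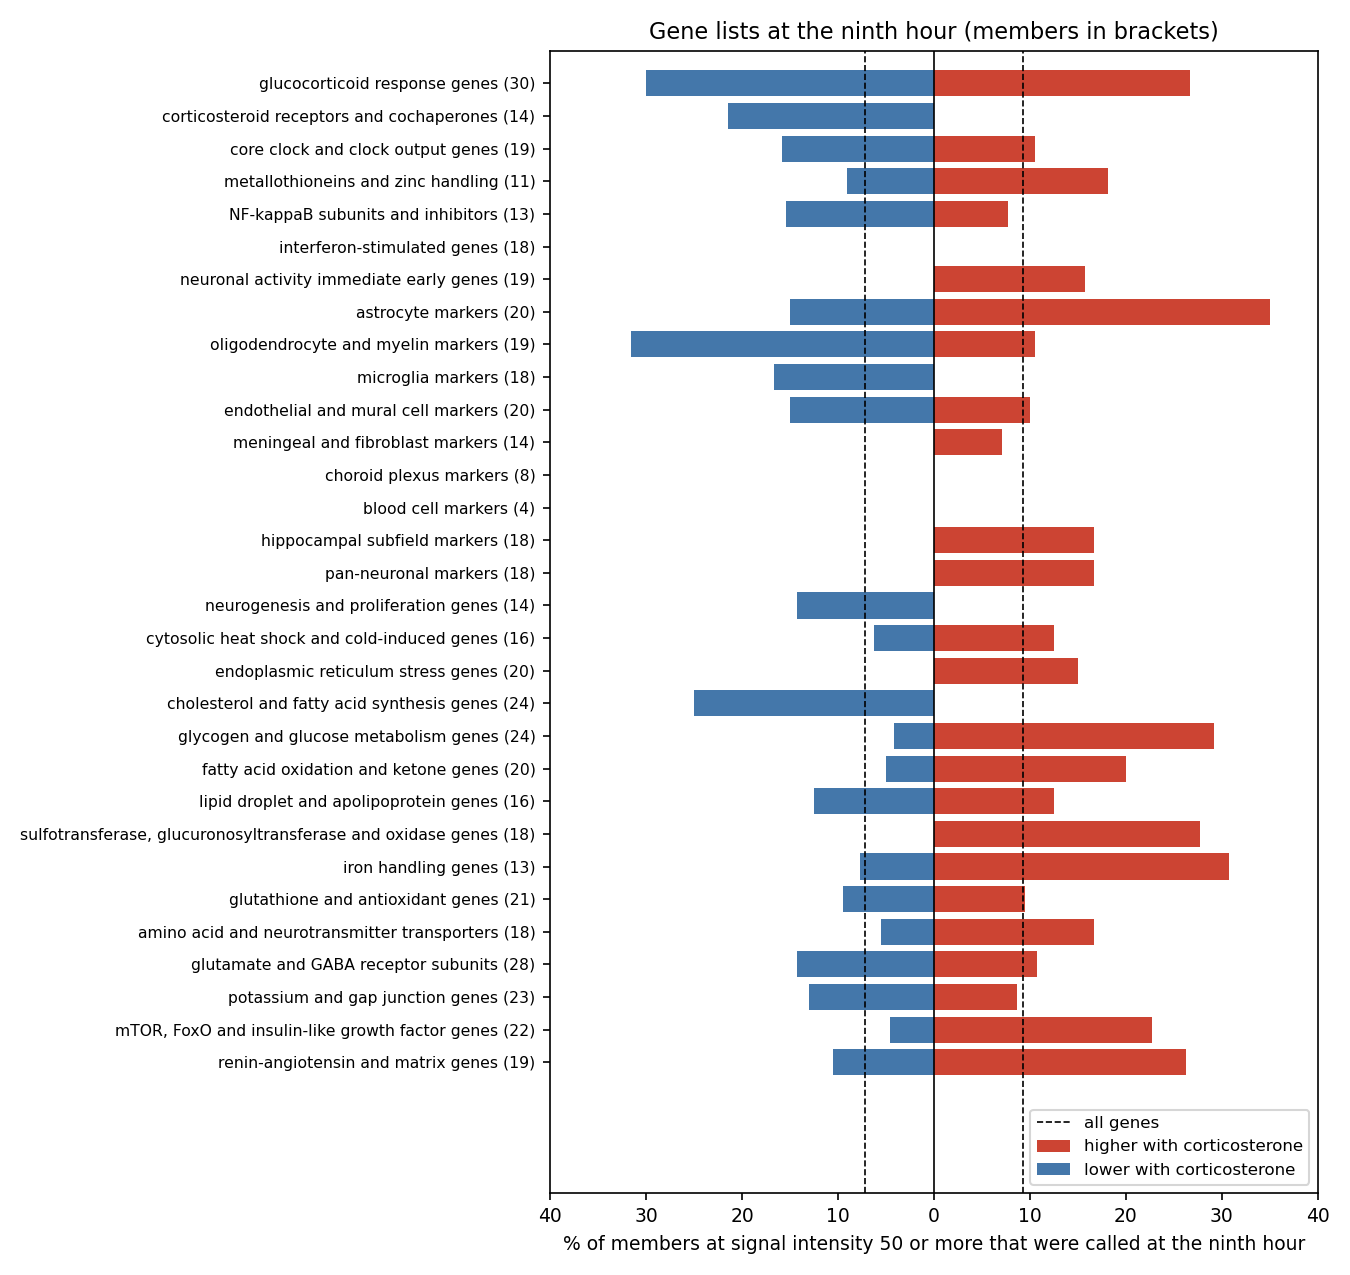
Share of the members of each gene list called higher or lower after corticosterone at the ninth hour, in percent of the members with a probe of intensity 50 or more, whose number stands in brackets, with dashed lines at the shares of all genes (7.23% lower and 9.25% higher). Of the glucocorticoid response genes 8 were higher and 9 lower, and of the 24 genes of cholesterol and fatty acid synthesis 6 were lower and none was higher.

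Among markers of cell types, astrocyte genes went in both directions, with 7 of 20 higher and 3 lower and a median of -0.069. *Etnppl*, *Agt*, *Timp4*, the folate enzyme *Aldh1l1* (0.41, adjusted p = 6.8e-09), *Ntsr2*, *Aldoc* and *Glul* were higher, and *Aqp4*, the gap junction gene *Gja1* (-0.25, adjusted p = 0.00187; -0.03 at the first hour) and the carrier *Slc7a10* (-0.21) were lower. The summed intensity of the list was 189580 to 212398 in control and 198311 to 218828 in treated animals. Oligodendrocyte and myelin markers had 6 of 19 lower and 2 higher, with a median of -0.19. Among the lower genes were *Opalin*, by the probe for the intron-retaining variant, *Mal* (-0.32), *Mag* (-0.30), *Tspan2* (-0.27) and *Cldn11* (-0.26), whereas *Mobp* (0.34) and *Mbp* (0.17) were higher. Their summed intensity overlapped, with 103216 to 149661 in control and 95786 to 126221 in treated animals. Dimmer probes gave 0.16 for *Mobp* and -0.099 and -0.13 for *Mbp*, none of which passed the test.

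Of 18 microglia markers 3 were lower and none higher, *P2ry12* (-0.37), *Trem2* (-0.31) and *Gpr34* (-0.26). Of 20 markers of vessels, *Flt1* (-0.37), *Abcg2* and *Rgs5* (-0.25) were lower and *Mfsd2a* and *Cldn5* higher, and the effect on 6 of them had changed since the first hour. The other probes of *Flt1*, both dimmer, gave 0.12 and 0.19 and did not pass the test. *Ptgds*, prostaglandin D2 synthase, was the only meningeal marker of 14 that was called, with 12245 to 28686 (median 17787) in control and 23201 to 38353 (median 29362) in treated animals (0.67, adjusted p = 0.000333; 0.45 and adjusted p = 0.126 without slide 1). None of 8 choroid plexus markers and none of 4 blood cell markers of this intensity was called. *Ttr* and *Hba-a1*, which define these tissues, had log2 fold changes of 0.50 (adjusted p = 0.473) and 0.054 (adjusted p = 0.824), and the part of these cells in the results was not tested further.

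Of 18 neuronal markers 3 were higher, *Slc32a1* (0.20), *Gad2* (0.17) and *Rbfox3* (0.11), the first 2 of which belong to inhibitory neurons, and of 18 subfield markers 3 were higher, led by *C1ql2* of the dentate gyrus (0.29). Receptor subunits of glutamate and GABA had 3 of 28 higher and 4 lower, among the latter *Grin2a* (-0.24), *Grin2b* (-0.23) and *Grin2c* (-0.23), against 3 higher and 12 lower at the first hour. Immediate early genes, which mark recent activity of neurons, had 3 of 19 higher (*Npas4* 0.41, *Junb* 0.29, *Fosb* 0.24) and none lower. Clock genes had 2 of 19 higher (*Nr1d1* 0.33, *Nfil3* 0.24) and 3 lower (*Per2* -0.27, *Dbp* -0.23, *Rorb* -0.23). *Mki67* of dividing cells (-0.37) and *Dcx* of young neurons (-0.13) were the 2 of 14 genes of neurogenesis that were lower. *Hes5* and *Sox2*, of neural stem cells, were not called at the ninth hour, but the effect on them had moved upward since the first, by 0.87 and 0.52.

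In the remaining lists, renin-angiotensin and matrix genes had 5 of 19 higher and 2 lower, endoplasmic reticulum stress genes 3 of 20 higher, transporters of amino acids and transmitters 3 of 18 higher and 1 lower, and heat shock genes 2 of 16 higher and 1 lower. Potassium channel and gap junction genes had 2 of 23 higher and 3 lower, lipid droplet and apolipoprotein genes 2 of 16 higher and 2 lower, glutathione and antioxidant genes 2 of 21 higher and 2 lower, genes of metallothioneins and zinc 2 of 11 higher and 1 lower, and NF-kappaB subunits and inhibitors 1 of 13 higher and 2 lower. Of 18 interferon-stimulated genes 7 had been lower at the first hour and none was called at the ninth, when the median was -0.19.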

How the data were processed

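Hippocampal RNA of individual mice was hybridized on Agilent arrays with 2 colours, and each of the 24 arrays carried 62976 spots. The deposited scanner files give for each spot the median intensity of both channels and of their background, together with flags of the authors' scanner software for outlier, saturated and well-above-background spots. The authors also deposited a table of log2 ratios, Cy5 over Cy3, which matched loess-normalized ratios made with an offset of 50 (median absolute difference 0.00129) and served only as an alternative. The members and gene lists were chosen with earlier results of these data known.

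Intensities were background-corrected with normexp in limma 3.58.1 (R 4.3.3, statmod 1.5.0), where p-values rest on an offset of 50 and fold changes, standard errors and intensities on an offset of 0, and then normalized by loess within and quantile between arrays. The 3671 control spots and outlier spots were left out, and 77 probes with a value missing on 1 array were fitted on the remaining arrays. Probes in copies were averaged. A separate channel fit over all 24 arrays with 6 groups (corticosterone or control at each hour; intraspot correlation 0.286) gave fold changes per hour and differences between hours, with Benjamini-Hochberg adjustment over 56605 probes; a probe was called at an adjusted p under 0.05. The fit was tested on simulated data. Intensity was averaged over both channels of all arrays. The number of arrays limits the precision. Through accessions, 34711 probes were named (34566 from RefSeq on GRCm38.p6 and 145 from the supplementary tables of the study), covering 23853 genes.

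Named were the 15 largest increases and the 15 largest decreases at the ninth hour among called probes of intensity 50 or more with the same direction on 8 arrays, the 10 largest differences from the first hour in each direction, the 10 largest late changes, and members of lists with the smallest p. Other probes of a gene, and further list members, were added after their values were seen. Some genes that this rule or the lists include are not reported here. In lists, a gene stands by its brightest probe. Promoter windows were read from RefSeq with Python 3.11.15. Alternatives changed the offset, background correction, normalization, filter, variance model, slide term, slides and arrays included, the signal column and the test, which was also run on log ratios and on the authors' log2 ratios.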

Additional observations from a re-analysis of the deposited data

Results flagged for a closer look

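Genes were drawn from the 65 probes of intensity 50 or more that were called at both the first and the ninth hour with opposite signs. The difference between these hours was called by limma for all 65, so that call is a condition of entry and no further result. For 25 genes among them, each given here by 1 probe, the log2 ratio had 1 sign on every array of the first hour and the other sign on every array of the ninth hour. The ninth-hour effect lay below the first-hour effect for *Mt2* (-1.82), *Tsc22d3* (-1.51), *Fas* (-1.4), *Paqr5* (-1.4), *Atp10a* (-1.33), *Mc4r* (-1.28), a dim probe of *Mt1* (-1.26), a dim probe of *Fkbp5* (-1.17), *Nfkbia* (-1.03), *Smim3* (-0.974) and *Rasd1* (-0.85), with the log2 difference in brackets. It also lay below for *Zfp189* (-0.74), *Errfi1* (-0.598), *Ly6c1* (-0.503), *Arhgap39* (-0.501), *Spns2* (-0.483), *Timp3* (-0.377), *Inpp5j* (-0.348), *Ccnd3* (-0.342), *Sidt1* (-0.256) and *B4galt4* (-0.237). It lay above for *Zfp36l2* (0.441), *Cd248* (0.492), *Meox1* (0.832) and *Fgfrl1* (0.921). By these probes, the difference was refitted under the alternatives only for *Mt2*, *Tsc22d3*, *Fas*, *Paqr5*, *Mc4r*, *Nfkbia*, *Smim3*, *Meox1* and *Fgfrl1*. Of these, that of *Paqr5* was not called without slide 3. For the others of the 25 it was not tested how the difference depends on slides or arrays. *Rasd1* encodes a small GTPase known to be induced by glucocorticoids, *Timp3* an inhibitor of matrix metalloproteinases, and *Zfp36l2* a protein that binds AU-rich transcripts.

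For *Tmem132b*, 1 ninth-hour array stood apart from the other 7 with a log2 ratio of -1.08, where the next lowest was -0.626 and the median -0.501. It was the only one of 75 probes examined for a lone array in this way, and chance flags about 1 in 20 such groups.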

How the results depend on the processing

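None of the 60 named fold changes and 36 named differences from the first hour changed direction under any of the alternatives run. All of these had been called in the main fit, and the direction of other probes was not followed. The number of probes called at the ninth hour, 7867, ranged from 5882 to 6737 when single ninth-hour arrays were left out, that at intensity 50 or more, 4424, from 3229 to 3979, the differences from the first hour, 469, from 345 to 413, and those from the fifth hour, 46, from 31 to 45. Slides mattered more, and fewer arrays enter these fits. Slide 1 alone, with 4 ninth-hour arrays, gave 1586 ninth-hour calls, 1154 of them at intensity 50 or more. It gave 28 differences from the first hour and 35 from the fifth. Slide 2 alone gave 15, 15 and 1, and no difference from the fifth hour (0). Slide 3 alone gave 15, 14 and 44, and 2 from the fifth hour. Without slide 1 there were 1787 calls, 1136 at intensity 50 or more, 123 differences from the first hour and 0 from the fifth. Without slide 2 there were 4724, 2628 and 259, and 51 differences from the fifth hour. Without slide 3 there were 4887 calls, 178 differences from the first hour and 6 from the fifth. Testing only probes of intensity 50 or more gave 95 differences from the fifth hour, and testing only probes well above background 80. With the array's 2 animals as a pair (replicate block) there were 7798 ninth-hour calls, 5146 at intensity 50 or more, 468 differences from the first hour and 53 from the fifth. Of 60 named fold changes, 54 to 58 kept their call when 1 array was left out, 36 without slide 1, 58 without slide 2 and 52 without slide 3. Of 36 named differences from the first hour, 31 to 36 did when 1 array was left out, and 24, 30 and 22 without slides 1, 2 and 3. Genes described only in lists, and most of the genes flagged above for opposite signs, were not refitted. Among called probes of intensity 50 or more, 50.5% were higher, and 58.7% with Aquantile normalization between arrays. With an offset of 50 in the fold changes too, those of dim probes were smaller, at 0.43 for *Asb4*, 0.50 for *Olfr145*, 0.51 for *Lao1* and -0.35 for *Fas*.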

Other observations

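Interferon-stimulated genes, which respond to viral and other signals of innate immunity, were not called between the groups at the ninth hour, and single animals stood out in them. A single control animal held the highest control value of 16 of the 18 genes of this list, with an intensity of 1156 for *Irf7* beside a control median of 188, 1617 for *Isg15*, 695 for *Oasl2*, 1147 for *Rtp4* and 835 for *Gbp3*. Of the same 18 genes, 10 had their highest corticosterone value in a single treated animal on another array, with 323 for *Irf7* and 789 for *Isg15*. The summed intensity of the list ranged from 11225 to 24840 in control and from 10659 to 13037 in treated animals.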
